A study of Mus musculus with 70 samples.

Results

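The 10 genes Hebp1, Tmem14c, Timmdc1, Rmnd1, Gnpda1, St6galnac1, Cap1, Tnfrsf14, Zfp979 and Zfp985 were chosen by name because each differed between NOD and B6g7 mice with 1 sign in all 5 cell types sorted from Rag-sufficient spleens. They are 10 of the 24435 genes in the deposited table once its transcripts were summed by gene, and 11 transcripts stand for them, of which 2 belong to Cap1. The Rag-sufficient strain difference chose the genes, so those values are given as a description with no test. The rule of choice did not use the Rag1-/- libraries or the differences between cell types, and the tests reported here rest on them. The 10 genes were, however, chosen with earlier results of these data known, so these tests may not be fully independent of the choice. Levels are given in CPM (counts scaled to a common library total, with TMM factors), and differences as log2 changes with their standard error (SE). All 10 genes passed the filter on low counts (at least 1 CPM in at least 3 libraries) in both sets. In bulk RNA of this kind, fewer cells making a transcript and less of it per cell cannot be told apart.

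RNA was sequenced from cells sorted out of the spleen: the conventional dendritic cells cDC1 and cDC2, plasmacytoid dendritic cells (pDC), monocytes, and dendritic cells derived from them (moDC). The mice were 8 to 10 weeks old, and every mouse had received PBS intraperitoneally 5 h before. NOD is an inbred strain that develops autoimmune diabetes. B6g7 is C57BL/6 carrying the g7 MHC haplotype of NOD. Rag1-/- mice lack mature B and T cells. Among Rag1-/- mice there were 3 NOD Rag1-/- and 3 B6 Rag1-/- libraries of every cell type but moDC, for which there were 3 NOD Rag1-/- and 2 B6 Rag1-/-, and none of monocytes. The controls here are labelled B6 Rag1-/-, not B6g7. Among Rag-sufficient mice, cDC1 and cDC2 had 6 NOD and 6 B6g7 libraries apiece, moDC had 5 NOD and 6 B6g7, and pDC and monocytes had 3 NOD and 3 B6g7 apiece. The labels do not say whether libraries of a group came from separate animals or from pools, so p-values measure the spread between these libraries, which may be in part technical.

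Library totals were 14.67 M to 20.64 M expected counts in the 23 Rag1-/- libraries and 12.81 M to 19.74 M in the 47 Rag-sufficient libraries. The sets were sequenced in separate runs, from 6575 to 14529 sorted cells and from 537 to 5000 sorted cells, so Rag1 status and run cannot be told apart and no test compares the sets. The RNA integrity number (RIN) was 8.1 to 9.5 in Rag1-/- and 3.9 to 10.0 in Rag-sufficient libraries, with the lowest in cDC2 B6g7 replicates 5 (6.8) and 6 (3.9). Without these 2 libraries all 50 Rag-sufficient strain differences kept their sign, and none moved by more than 0.34 on the log2 scale. Rag1 itself had 0.13 to 3.49 CPM in the Rag1-/- libraries and 0 to 0.445 CPM in the Rag-sufficient ones. The counts do not show which part of the transcript was read, so they do not check the knockout, and groups are named by their labels. The 11 cDC1 markers summed to between 8914.5 and 14139.2 CPM in cDC1 libraries. Their sum was 2904.3 to 5088.4 CPM in pDC libraries and at most 1778.4 CPM in the other cell types. The 10 pDC markers summed to between 8645.2 and 42185.6 CPM in pDC libraries, against at most 703.7 CPM in all other libraries. The 9 cDC2 markers did not single out cDC2, with sums of 1257.8 to 2566.8 CPM in cDC2 and 1552.2 to 4115.2 CPM in moDC. The pDC B6 Rag1-/- replicate 3 stood apart, with a pDC marker sum of 12378.4 CPM against 40885.9 and 42185.6 CPM in the other B6 Rag1-/- pDC libraries. NOD Rag1-/- pDC libraries had 10277.8, 8645.2 and 19655.8 CPM, so replicate 3 lay within their range. Rag-sufficient pDC libraries had 18159.1 to 21126.7 CPM in NOD and 23134.6 to 26668.8 CPM in B6g7, below the other B6 Rag1-/- pDC libraries. All 10 genes were still called in pDC without B6 Rag1-/- replicate 3.

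The 10 genes are known for different roles. Haem, the iron-bearing ring of haemoglobin and cytochromes, is finished inside mitochondria. TMEM14C carries the precursor protoporphyrinogen across the inner mitochondrial membrane, and HEBP1 binds haem and related rings in the cytosol. TIMMDC1 helps assemble respiratory complex I, and RMND1 is needed for protein synthesis on mitochondrial ribosomes. GNPDA1 turns glucosamine 6-phosphate back into fructose 6-phosphate, which drains the pathway that makes aminosugars for glycans, and ST6GALNAC1 caps O-linked glycans with sialic acid. CAP1 recycles actin subunits at the cell cortex. TNFRSF14, also called HVEM, is a receptor for LIGHT and for the inhibitory receptor BTLA. Zfp979 and Zfp985 lie in a cluster of zinc finger genes on chromosome 4 whose products include KRAB repressors of transcription.

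In Rag1-/- mice all 10 genes differed between the strains in each of the 4 cell types, with the sign seen in Rag-sufficient mice. Hebp1, Timmdc1, St6galnac1, Cap1, Tnfrsf14, Zfp979 and Zfp985 rose, and Tmem14c, Rmnd1 and Gnpda1 fell, in NOD Rag1-/- relative to B6 Rag1-/- cells. The test was edgeR's quasi-likelihood test over 13137 genes, two-sided, with Benjamini-Hochberg adjustment and a threshold of 0.05. Of all genes tested it called 1.67% in cDC1 (0.769% higher, 0.898% lower), 2.34% in cDC2 (1.07% higher, 1.26% lower), 1.49% in moDC (0.571% higher, 0.921% lower) and 4.58% in pDC (1.87% higher, 2.71% lower). Without pDC B6 Rag1-/- replicate 3 the pDC calls numbered 3183 genes, against 602 with it. Replicate numbers pair the cDC1 libraries by sort date, and with a replicate block the cDC1 calls numbered 88 genes, against 219 without. The block was fitted in all 4 cell types at once with a shared estimate of the spread. In the other cell types most replicate numbers do not pair libraries, so these counts do not show the cDC1 pairing alone. Under the block 9 of the 10 genes were still called in cDC1, and Zfp985 was not (edgeR adjusted p = 0.153). The libraries of the 2 strains did not overlap for any of the 10 genes in any cell type, a separation shown by 12% of all genes in pDC, 21.2% in cDC1, 25.8% in cDC2 and 29.6% in moDC. In Rag-sufficient mice, where this contrast chose the genes, their libraries did not overlap either, as for 33.8% of all genes in monocytes, 27.4% in pDC, 7.16% in moDC, 6.88% in cDC2 and 5.25% in cDC1.

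Genes called with 1 sign in all 5 Rag-sufficient cell types numbered 138 higher (1.03%) and 184 lower (1.37%) in NOD, 2.4% of genes tested. Genes called with 1 sign in all 4 Rag1-/- cell types numbered 34 higher (0.259%) and 45 lower (0.343%), or 0.601% in all. The lists shared 26 higher genes, which are 18.8% of the Rag-sufficient list and 76.5% of the Rag1-/- list, and 31 lower genes, 16.8% and 68.9%. All 10 genes stand in both lists. They are therefore not typical of the Rag-sufficient list, most of which was not called throughout in Rag1-/- cells.

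**Figure D1:**
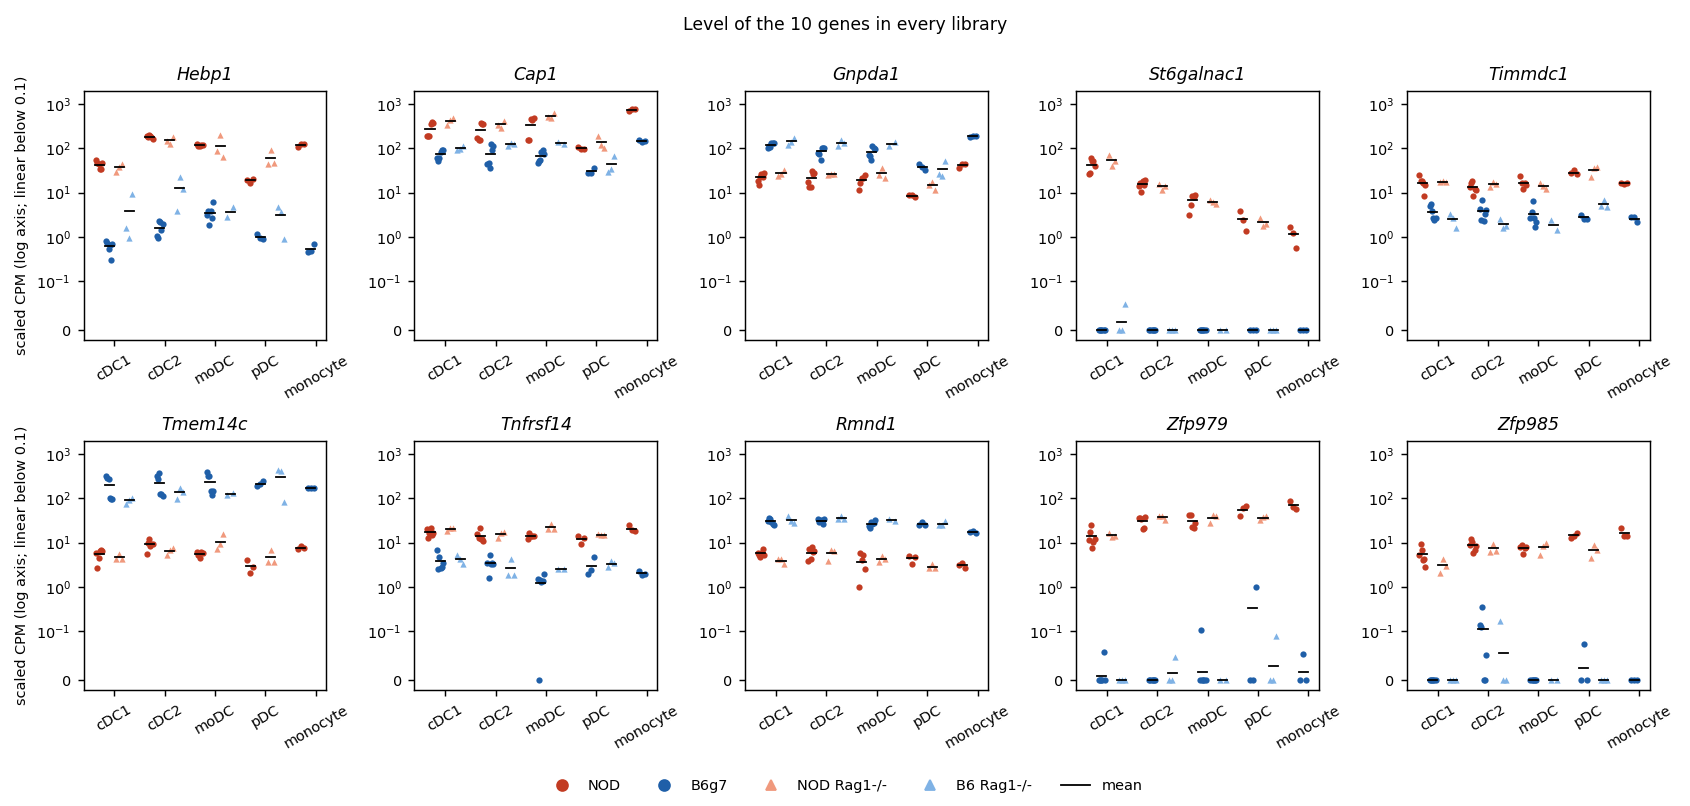
Level of each of the 10 genes in all 70 libraries, in scaled CPM on a log axis that is linear below 0.1, by cell type and strain. Each point is a library and each bar a group mean, and in every panel the NOD and NOD Rag1-/- libraries stand on one side of the B6g7 and B6 Rag1-/- libraries of the same cell type.

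Hebp1, the haem-binding protein, rose in NOD Rag1-/- cells of all 4 types, but in 3 of them the call rested on single libraries. In cDC1 it had 29.6, 36.8 and 45 CPM in NOD Rag1-/- libraries, against 1.56, 0.937 and 9.21 CPM in B6 Rag1-/- libraries (log2 change 3.23 ± 0.77 SE, edgeR adjusted p = 0.0335). In cDC2 it had 148.1, 125.6 and 177.9 CPM in NOD Rag1-/- libraries, against 3.88, 22.4 and 12 CPM in B6 Rag1-/- libraries (3.56 ± 0.77, edgeR adjusted p = 0.0131). The NOD Rag1-/- libraries lay close together in both, while 1 of 3 B6 Rag1-/- libraries in each was several times above another. In moDC the values were 84.7, 197.4 and 64 CPM in NOD Rag1-/- and 2.73 and 4.68 CPM in B6 Rag1-/- libraries (4.95 ± 0.99, edgeR adjusted p = 0.0104). In pDC they were 43.4, 89.8 and 46.9 CPM in NOD Rag1-/- and 4.79, 3.68 and 0.899 CPM in B6 Rag1-/- libraries (4.29 ± 0.81, edgeR adjusted p = 0.00447). All NOD Rag1-/- libraries were above all B6 Rag1-/- libraries, but the cDC1 call was lost without any one of 5 of its 6 libraries (all but B6 Rag1-/- replicate 3), with adjusted p from 0.0567 to 0.174. The moDC call was lost without B6 Rag1-/- replicate 1 (adjusted p = 0.219) or 2 (adjusted p = 0.111), and the cDC2 call without B6 Rag1-/- replicate 1 (adjusted p = 0.0536) or 3 (adjusted p = 0.0751).

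In Rag-sufficient cells Hebp1 was higher in NOD by 4.25 (pDC) to 7.78 (monocyte) on the log2 scale. In cDC2 the lowest, median and highest libraries had 159.6, 188.0 and 194.3 CPM in NOD, against 0.931, 1.66 and 2.23 CPM in B6g7. In cDC1 they had 33.2, 45 and 53 CPM in NOD, against 0.293, 0.669 and 0.801 CPM in B6g7. Monocytes had 105.4, 127.5 and 125.5 CPM in NOD and 0.448, 0.483 and 0.671 CPM in B6g7. The strains thus stood 69-fold apart in cDC1, 114.5-fold in cDC2 and 223.8-fold in monocytes by their means, and 18.8-fold in pDC, where NOD averaged 18.9 ± 1.96 CPM (SD, n = 3) and B6g7 1.01 ± 0.121 CPM (n = 3). In moDC NOD averaged 117.4 ± 5.17 CPM (n = 5) and B6g7 3.53 ± 1.39 CPM (n = 6).

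The order of cell types differed with the strain. Among NOD groups cDC2 had the highest Hebp1 level (184.0 CPM) and pDC the lowest (18.9 CPM), while among B6g7 groups moDC was highest (3.53 CPM) and monocytes lowest (0.534 CPM). In both strains together Hebp1 was lower in cDC1 than in cDC2 (log2 change -1.77 ± 0.15, edgeR adjusted p = 1.1e-14), and in Rag1-/- mice as well (-1.87 ± 0.51, edgeR adjusted p = 0.011). Between moDC and cDC2 the strains went opposite ways: in NOD alone Hebp1 was lower in moDC (-0.64 ± 0.14, edgeR adjusted p = 0.00029), and in B6g7 alone it was higher (1.17, edgeR adjusted p = 5.2e-06). These contrasts within 1 strain were added after the data had been seen, and the difference between them was not tested.

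Tmem14c, the protoporphyrinogen carrier, had the largest fall of the 3 genes that were lower in NOD Rag1-/- cells. In cDC1 it had 4.35, 5.55 and 4.28 CPM in NOD Rag1-/- libraries and 72.9, 93.5 and 104.2 CPM in B6 Rag1-/- libraries (log2 change -4.26 ± 0.50, edgeR adjusted p = 3e-05). In cDC2 it had 5.21, 6.97 and 7.62 CPM in NOD Rag1-/- libraries and 99, 174.1 and 137.2 CPM in B6 Rag1-/- libraries (-4.38 ± 0.50, edgeR adjusted p = 2.3e-05). Every NOD Rag1-/- library in both cell types was far below the lowest B6 Rag1-/- library. In moDC the values were 7.23, 9.14 and 15.3 CPM in NOD Rag1-/- libraries, against 116.6 and 133.3 CPM in B6 Rag1-/- libraries (-3.56 ± 0.50, edgeR adjusted p = 0.00037). In pDC they were 3.71, 6.86 and 3.56 CPM in NOD Rag1-/- libraries, against 429.4, 413.1 and 81.3 CPM in B6 Rag1-/- libraries (-6.04 ± 0.54, edgeR adjusted p = 1.3e-06). The low B6 Rag1-/- pDC value is replicate 3. Its pDC marker sum was the lowest of the B6 Rag1-/- pDC libraries but within the NOD Rag1-/- range. Without this library the change was -6.50 (edgeR adjusted p = 3.73e-09).

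In Rag-sufficient cells Tmem14c was lower in NOD, with log2 changes from -6.14 (pDC) to -4.42 (cDC2). The lowest, median and highest cDC1 libraries had 2.67, 6.04 and 6.95 CPM in NOD and 95.7, 189.1 and 326.5 CPM in B6g7. The cDC2 libraries had 5.54, 9.47 and 12 CPM in NOD and 115.7, 202.5 and 366.4 CPM in B6g7. The wide B6g7 range follows the sort date, which cannot be told apart from the number of sorted cells. The cDC1, cDC2 and moDC of both strains were sorted on an earlier and a later date. B6g7 averaged 295.7 ± 26.9 CPM in the earlier and 97.7 ± 3.21 CPM in the later cDC1 sort (n = 3 each). The later B6g7 level was 0.33 times the earlier in cDC1, 0.373 times in cDC2 and 0.404 times in moDC, while NOD changed 1.53-, 1- and 0.979-fold. The strain difference was therefore -6.05 in the earlier and -3.91 in the later cDC1 sort, -5.13 and -3.72 in cDC2, and -5.85 and -4.65 in moDC.

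Erythroid cells make much haem, and markers of these cells moved with the strain. The 11 erythroid markers summed to 9582.6 to 12023.2 CPM in NOD Rag1-/- and 392.3 to 3764.2 CPM in B6 Rag1-/- cDC1, and to 7686.9 to 12836.0 CPM in NOD Rag1-/- and 427.3 to 563.0 CPM in B6 Rag1-/- moDC. In cDC2 the sums were 10016.9 to 19441.4 CPM in NOD Rag1-/- and 699.4 to 7538.4 CPM in B6 Rag1-/-, and in pDC 4659.8 to 29769.1 CPM in NOD Rag1-/- and 1957.3 to 8066.5 CPM in B6 Rag1-/-. None of the 11 was at 0 in every library, and 1 of 11 was called in cDC1 (Ermap), 3 in moDC and 5 in pDC, all higher. In Rag-sufficient groups the sum ranged from 1094.1 to 24738.8 CPM in NOD and from 33.4 to 2334.2 CPM in B6g7. Hebp1 was higher and Tmem14c lower in the strain where these markers were higher. The part of erythroid RNA in either difference was not tested.

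Markers of other cells differed between the strains as well. The 11 neutrophil markers summed to 676.6 to 13695.9 CPM in NOD Rag1-/- and 30.5 to 419.5 CPM in B6 Rag1-/- moDC (median log2 change 5.04), and none of the 11 was called there by edgeR. Their sum was 531.8 to 1831.0 CPM in NOD and 1.7 to 232.2 CPM in B6g7 moDC, but 253.0 to 401.4 CPM in NOD and 1763.8 to 8197.9 CPM in B6g7 monocytes. The median log2 change of the 10 NK cell markers was -3.34 in cDC2, -1.95 in pDC, -1.87 in cDC1 and -2.04 in moDC of Rag1-/- mice, and edgeR called Klrb1c and Il2rb, both lower in cDC2. They summed to 17 to 119.1 CPM in NOD Rag1-/- and 149.4 to 356.6 CPM in B6 Rag1-/- pDC. In moDC the sum was 174.4 to 284.1 CPM in NOD Rag1-/- and 390.4 to 468.9 CPM in B6 Rag1-/-. The cDC1 sum went the other way, with 181.8 to 199.7 CPM in NOD Rag1-/- and 116.4 to 169.3 CPM in B6 Rag1-/-. In cDC2 the sums overlapped, at 58 to 97.8 CPM in NOD Rag1-/- and 61.7 to 260.9 CPM in B6 Rag1-/-. Rag-sufficient cDC2 had a higher sum in NOD (87.2 to 176.5 CPM) than in B6g7 (29 to 66.1 CPM). The 11 monocyte and macrophage markers summed to 1777.2 to 2482.0 CPM in NOD Rag1-/- and 3441.3 to 22821.4 CPM in B6 Rag1-/- pDC. There Ly6c2 fell and Ccr2 rose, and the list's median log2 change was -0.27. Most of the B6 Rag1-/- sum was Ly6c2, with 2716.4 to 22338.7 CPM. Ly6c2 is not particular to monocytes here, since it averaged 8560.7 CPM in B6g7 pDC and 1988.5 CPM in B6g7 monocytes. Csf1r averaged 103.6 ± 82.2 CPM in NOD Rag1-/- and 122.7 ± 75.2 CPM in B6 Rag1-/- pDC (SD). The 10 B cell markers summed to 600.5 to 2837.9 CPM in NOD and 185.7 to 408.0 CPM in B6g7 moDC. No marker of the neutrophil, NK cell or monocyte lists was at 0 throughout a Rag1-/- cell type. The part of these cells in the results was not tested.

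Of 22 other tested genes of haem synthesis and transport, Alad, which joins the first pyrrole, rose in cDC2 and pDC, and Fech, Alas2 and Slc25a37 were among those that rose in pDC. Hmox2, a haem-degrading enzyme, fell in cDC2. The list's median log2 change was 0.64 in pDC, 0.57 in cDC2, 0.49 in moDC and 0.39 in cDC1, beside -0.03 to 0.01 for all genes tested. Alas2 is itself 1 of the erythroid markers. Tmem14a, the closest relative of Tmem14c tested, had log2 changes of -1.03 in cDC2 (edgeR adjusted p = 0.62) and -0.98 in pDC (edgeR adjusted p = 0.414).

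Timmdc1, the complex I assembly factor, rose in NOD Rag1-/- cells by much the same amount in every cell type. It averaged 17.5 ± 0.503 CPM in NOD Rag1-/- and 2.48 ± 0.84 CPM in B6 Rag1-/- cDC1 (SD, n = 3 each), a log2 change of 2.82 ± 0.32 (edgeR adjusted p = 2.2e-05). The change was 2.99 ± 0.32 in cDC2 (edgeR adjusted p = 1.1e-05), 2.88 ± 0.38 in moDC (edgeR adjusted p = 0.00016) and 2.53 ± 0.32 in pDC (edgeR adjusted p = 5.5e-05). Among Rag1-/- groups its highest level was in pDC, with 22.3, 36.6 and 37.1 CPM in NOD Rag1-/- libraries against 5.09, 6.68 and 4.67 CPM in B6 Rag1-/- libraries. It was higher in pDC than in cDC2 of Rag1-/- mice by 1.27 ± 0.22 (edgeR adjusted p = 8.3e-05). In Rag-sufficient cells the strains were 1.79 (cDC2) to 3.38 (pDC) apart on the log2 scale. There the strains came nearest in cDC2, where the lowest, median and highest libraries had 8.4, 12.6 and 18 CPM in NOD and 2.25, 3.62 and 6.96 CPM in B6g7.

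Of 17 tested complex I assembly genes other than Timmdc1, Ndufaf7, which methylates a complex I subunit, fell in moDC, and no other was called in any cell type by edgeR. Without pDC B6 Rag1-/- replicate 3, however, 7 of the 17 were called in pDC. Calls over all genes rose as well, from 602 of 13137 to 3183. The list's median log2 change lay between -0.23 and 0.21. Tmem126b, which joins the assembly complex, had a change of 0.06 in cDC1 (edgeR adjusted p = 1) and -0.81 in pDC (edgeR adjusted p = 0.244).

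Rmnd1, the mitochondrial translation factor, fell in NOD Rag1-/- cells with the smallest adjusted p-values of the genes measured well in both strains. It had 4.29, 4.26 and 3.25 CPM in NOD Rag1-/- cDC1 libraries, against 40.7, 30.4 and 27.6 CPM in B6 Rag1-/- cDC1 libraries (log2 change -3.07 ± 0.27, edgeR adjusted p = 6.1e-07). In pDC it had 2.67, 3.23 and 2.64 CPM in NOD Rag1-/- and 24.9, 25.2 and 30.2 CPM in B6 Rag1-/- libraries (-3.24 ± 0.27, edgeR adjusted p = 5.2e-07). The change was -2.63 ± 0.26 in cDC2 (edgeR adjusted p = 3.7e-06) and -2.91 ± 0.28 in moDC (edgeR adjusted p = 2.8e-06). B6 Rag1-/- groups averaged 26.8 to 35.5 CPM and NOD Rag1-/- groups 2.85 to 5.76 CPM, so that no library of one strain came near the other. In Rag-sufficient cells the change was -2.87 (moDC) to -2.37 (cDC2), and the most scattered group was NOD moDC, with 0.994, 5.97, 4, 5.15 and 2.48 CPM against 21.2, 27.3 and 32 CPM for the lowest, median and highest B6g7 libraries. Among Rag-sufficient cell types Rmnd1 was lowest in monocytes, at 3.1 ± 0.377 CPM in NOD and 17.6 ± 0.961 CPM in B6g7 (n = 3 each), a change of -0.87 ± 0.18 against cDC2 (edgeR adjusted p = 3.7e-05). It was also lower in moDC than in cDC2 of Rag-sufficient mice (-0.45 ± 0.14, edgeR adjusted p = 0.00681).

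A pseudogene, Gm5512, shares exact 75-base windows with 34.1% of the Rmnd1 transcript. Adding its counts left the Rmnd1 change at -3.24 in pDC, -3.15 in cDC1, -2.89 in moDC and -2.61 in cDC2. Of 21 other tested mitochondrial translation genes, Mtif2, an initiation factor, fell in pDC, and the list's median was 0.02 to 0.15. The elongation factor Gfm1 had changes of -0.08 in cDC1 (edgeR adjusted p = 1) and 0.26 in pDC (edgeR adjusted p = 0.648).

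Gnpda1, the glucosamine 6-phosphate deaminase, fell in NOD Rag1-/- cells, and its near-copy Gm8615 rose in the same cells. In cDC1 Gnpda1 had 23.9, 26.6 and 33 CPM in NOD Rag1-/- libraries, against 119.9, 141.3 and 169.1 CPM in B6 Rag1-/- libraries (log2 change -2.37 ± 0.28, edgeR adjusted p = 2.6e-05). In cDC2 it had 24.8, 26.3 and 25.7 CPM in NOD Rag1-/- libraries, against 110.8, 157.1 and 131.9 CPM in B6 Rag1-/- libraries (-2.39 ± 0.28, edgeR adjusted p = 2.4e-05). The NOD Rag1-/- libraries of both cell types lay far below every B6 Rag1-/- library. In moDC the values were 25.5, 35 and 21.3 CPM in NOD Rag1-/- and 113.4 and 135.0 CPM in B6 Rag1-/- libraries (-2.18 ± 0.29, edgeR adjusted p = 0.0002). In pDC they were 14.6, 17.1 and 11.6 CPM in NOD Rag1-/- and 25.6, 24.2 and 50.3 CPM in B6 Rag1-/- libraries (-1.22 ± 0.27, edgeR adjusted p = 0.0127). The pDC strains stood closest, and without B6 Rag1-/- replicate 3, the highest value, the change was -0.81 (edgeR adjusted p = 0.0174).

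Gm8615 shares exact 75-base windows with 16.2% of the Gnpda1 transcript and 31-base windows with 28.1%. It averaged 0.0234 to 0.294 CPM in B6g7 and B6 Rag1-/- groups, and 28.8 to 143.8 CPM in NOD and NOD Rag1-/- groups. In cDC1 it averaged 96.9 ± 10.8 CPM in NOD Rag1-/- and 0.0393 ± 0.0346 CPM in B6 Rag1-/- libraries (SD, n = 3 each), and it was called in all 4 Rag1-/- cell types, with edgeR adjusted p from 4.6e-08 in cDC1 to 5.2e-07 in pDC. The sum of both genes was 124.7 ± 15.2 CPM in NOD Rag1-/- and 143.5 ± 24.7 CPM in B6 Rag1-/- cDC1, and 116.7 ± 1.17 CPM in NOD Rag1-/- and 133.5 ± 23.2 CPM in B6 Rag1-/- cDC2. In pDC it was 63 ± 14.8 CPM in NOD Rag1-/- and 33.6 ± 14.5 CPM in B6 Rag1-/-. The summed counts changed by -0.21 ± 0.26 in cDC1 (edgeR adjusted p = 1), -0.20 ± 0.26 in cDC2 (edgeR adjusted p = 0.944), 0.03 ± 0.30 in moDC (edgeR adjusted p = 1) and 0.89 ± 0.27 in pDC (edgeR adjusted p = 0.0619). The sign thus turned in moDC and pDC, and no summed value was called. In Rag-sufficient cells the sum differed by -0.20 to 0.12 on the log2 scale, where Gnpda1 alone differed by -2.41 to -2.05. Reads of near-identical copies can be shared out between their names, so the level of Gnpda1 taken alone is uncertain. The added counts were an alternative chosen after the data had been seen.

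**Figure D2:**
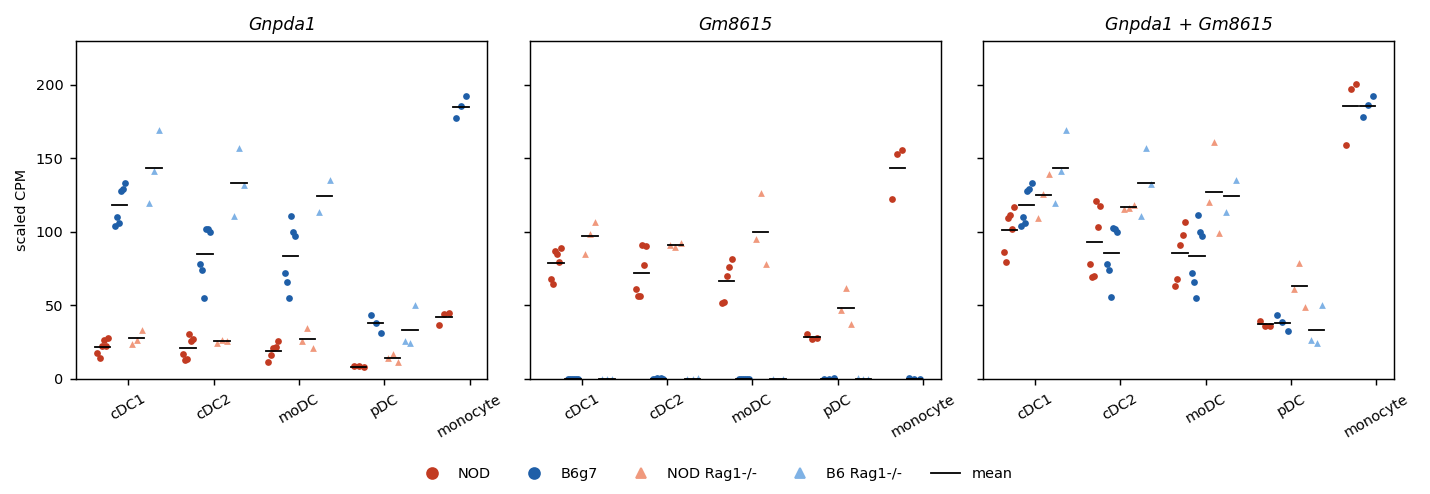
Level of Gnpda1, of its near-copy Gm8615 and of their sum in scaled CPM (linear axis), by cell type and strain. Points are libraries and bars group means: Gm8615 lies near 0 in every B6g7 and B6 Rag1-/- group, and the mean sum is 124.7 CPM in NOD Rag1-/- and 143.5 CPM in B6 Rag1-/- cDC1, but 63 CPM in NOD Rag1-/- and 33.6 CPM in B6 Rag1-/- pDC.

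Of 16 other tested aminosugar genes, Gfpt1, which makes glucosamine 6-phosphate, fell in moDC (29.7 ± 6.27 CPM in NOD Rag1-/- and 67.4 ± 19.9 CPM in B6 Rag1-/-, edgeR adjusted p = 0.0233). Gne, which opens sialic acid synthesis, fell in pDC, a call lost without B6 Rag1-/- replicate 3 (-0.52 ± 0.21, edgeR adjusted p = 0.0761), and the list's median was -0.01 to 0.16. Gnpda2, which carries out the same reaction as Gnpda1, averaged 29 ± 7.93 CPM in NOD Rag1-/- and 31.8 ± 2.57 CPM in B6 Rag1-/- cDC1, with log2 changes of -0.14 to 0.18 over the cell types (lowest edgeR adjusted p = 0.743).

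St6galnac1, the sialyltransferase, was read almost wholly in NOD mice. In cDC1 it had 72.2, 39.1 and 50.7 CPM in NOD Rag1-/- libraries, against 0, 0 and 0.0529 CPM in B6 Rag1-/- libraries, a ratio of 2872.8 on a single B6 count (95% exact counting interval 515.2 to 113508.3). In cDC2 it had 15.9, 11.3 and 14.4 CPM in NOD Rag1-/- libraries and 0 in all 3 B6 Rag1-/- libraries, at least 298.8-fold higher against a floor of 3 counts over the group. The moDC libraries had 6.68, 6.18 and 5.58 CPM in NOD Rag1-/- and 0 in both B6 Rag1-/- libraries, at least 80.5-fold higher. These groups do not come near each other, and only 1 count fell to the gene in all 11 B6 Rag1-/- libraries. The pDC libraries had 2.62, 1.8 and 1.98 CPM in NOD Rag1-/- and 0 in B6 Rag1-/-, at least 30.3-fold higher. The edgeR adjusted p was between 1.2e-07 (cDC1) and 2.5e-05 (pDC). All 24 B6g7 libraries had no count, and all 23 NOD libraries had one, from 0.566 CPM in a monocyte library to 59 CPM in a cDC1 library.

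Within NOD, St6galnac1 followed the cell type. NOD groups averaged 42.7 ± 14 CPM in cDC1 (SD, n = 6), 15.5 ± 3.18 in cDC2 (n = 6), 6.63 ± 2.4 in moDC (n = 5), 2.53 ± 1.21 in pDC (n = 3) and 1.15 ± 0.566 in monocytes (n = 3). In NOD libraries alone, a contrast added after the data had been seen, it was higher in cDC1 than in cDC2 by 1.45 ± 0.25 (edgeR adjusted p = 2e-05) and lower in moDC (log2 change -1.31 ± 0.27, edgeR adjusted p = 0.00033). It was lower in monocytes than in cDC2 (-3.93 ± 0.40, edgeR adjusted p = 2.4e-09). NOD Rag1-/- cells kept this order of means: cDC1 was above cDC2 by 1.94 ± 0.37 (edgeR adjusted p = 0.00224) and pDC below it (-2.69 ± 0.38, edgeR adjusted p = 0.00011), while moDC had -1.17 ± 0.36 (edgeR adjusted p = 0.0541).

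The nearest tested genes on either side of St6galnac1 on chromosome 11 rose as well. BC018473 averaged 439.0 CPM in NOD Rag1-/- and 0.0139 CPM in B6 Rag1-/- cDC2 (edgeR adjusted p = 1.3e-08), and was called in all 4 cell types. Mxra7 averaged 7.16 CPM in NOD Rag1-/- and 0.175 CPM in B6 Rag1-/- cDC1 (edgeR adjusted p = 0.00905), and was called in all 4 as well (highest adjusted p = 0.0284 in moDC). Of all 18 nearest tested neighbours of the 10 genes, 3 were called in cDC1, cDC2 and pDC and 2 in moDC. The further neighbour was Zfp534 beside Zfp979. Gm11735, an annotated transcript, shares 75-base windows with 27.1% of St6galnac1.

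Of 17 other tested sialyltransferases, St6galnac2, which acts on O-linked glycans as well, rose in 3 cell types. It averaged 288.7 ± 88.7 CPM in NOD Rag1-/- and 23 ± 19.5 CPM in B6 Rag1-/- cDC2 (log2 change 3.64 ± 0.71, edgeR adjusted p = 0.00571). It averaged 202.1 ± 68.7 CPM in NOD Rag1-/- and 4.86 ± 1.67 CPM in B6 Rag1-/- moDC (5.37 ± 0.93, edgeR adjusted p = 0.0027), and in pDC it changed by 3.93 ± 0.74 (edgeR adjusted p = 0.00443). In cDC1, where St6galnac1 was highest, its change of 1.48 ± 0.67 was not called (edgeR adjusted p = 0.467). St6galnac6 and St3gal5 rose in pDC, and the list's median was 0.00 to 0.30.

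Cap1, which returns actin subunits to the pool for new filaments, rose in NOD Rag1-/- cells. In moDC it had 500.3, 476.4 and 631.5 CPM in NOD Rag1-/- libraries, against 135.7 and 126.8 CPM in B6 Rag1-/- libraries (log2 change 2.03 ± 0.34, edgeR adjusted p = 0.00218). In pDC it had 190.8, 118.8 and 98.9 CPM in NOD Rag1-/- libraries, against 29.8, 33.5 and 66.4 CPM in B6 Rag1-/- libraries (1.64 ± 0.29, edgeR adjusted p = 0.00269). Every NOD Rag1-/- library was above every B6 Rag1-/- library in both, and both strains had lower values in pDC than in moDC. The change was 2.03 ± 0.30 in cDC1 (edgeR adjusted p = 0.00039) and 1.51 ± 0.29 in cDC2 (edgeR adjusted p = 0.00537). The moDC call was lost without B6 Rag1-/- replicate 1 (adjusted p = 0.0559) or 2 (adjusted p = 0.0587). In Rag-sufficient cells the change was 1.73 (pDC) to 2.35 (monocyte).

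Cap1 was highest in monocytes, with 689.7, 757.7 and 770.1 CPM in NOD and 150.3, 135.2 and 145.3 CPM in B6g7 libraries. Against cDC2 this was a difference of 0.86 ± 0.09 over both strains (edgeR adjusted p = 2.6e-11). In Rag1-/- mice pDC had less than cDC2 (-1.42 ± 0.21, edgeR adjusted p = 1.5e-05). Within a strain the later sort had more Cap1 than the earlier, by 1.54- to 2.96-fold. In NOD moDC the earlier sort gave 153.6 ± 2.66 CPM (n = 2) and the later 454.0 ± 16.2 CPM (n = 3), and in B6g7 moDC 50.9 ± 4.65 and 82.8 ± 9.32 CPM (n = 3 each). The strain difference held its sign in each sort, from 1.64 (moDC, earlier) to 2.44 (moDC, later). Gnpda1 was 1.22 to 1.9 times as high in the later sort. For both genes sort date and number of sorted cells cannot be told apart.

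**Figure D3:**
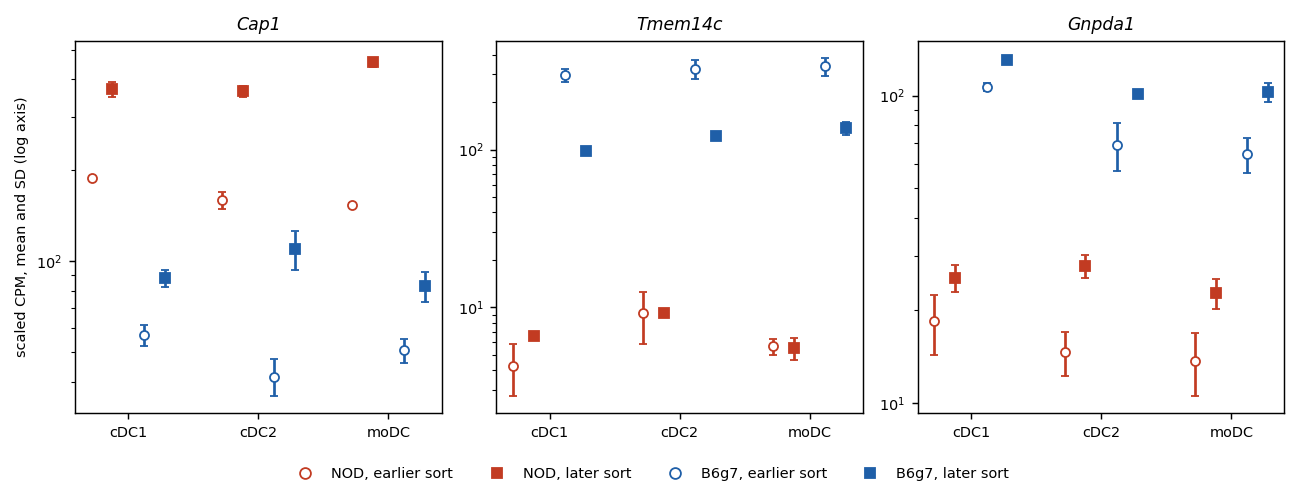
Mean and SD over libraries of Cap1, Tmem14c and Gnpda1 in scaled CPM (log axis) for NOD and B6g7 cDC1, cDC2 and moDC, by earlier and later sort. Tmem14c falls with the later sort in B6g7, to 97.7 CPM in cDC1, while Cap1 rises in both strains.

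Both Cap1 transcripts were measured. NM_001301067 was called in cDC1, cDC2 and moDC but not in pDC (log2 change 1.25, edgeR adjusted p = 0.054 over 18502 transcripts). NM_007598 was called in cDC1 and pDC but not in cDC2 (edgeR adjusted p = 0.153) or moDC (edgeR adjusted p = 0.105). All 9 other transcripts were called in all 4 cell types, so that 11 of 11 transcripts passed in cDC1 and 10 of 11 in each of the others, beside 1.27%, 1.45%, 0.957% and 2.53% of all transcripts in cDC1, cDC2, moDC and pDC. The share of Cap1 counts on NM_007598 was furthest apart in Rag1-/- pDC, at 55.3% ± 6.91 in NOD Rag1-/- and 32.4% ± 19.8 in B6 Rag1-/- (SD, n = 3 each; two-sided exact permutation p = 0.3, adjusted p = 0.9), where 3 libraries against 3 cannot go below 0.1. The lowest p was that of Rag-sufficient moDC, at 49.4% ± 4 in NOD (n = 5) and 62.1% ± 11.4 in B6g7 (n = 6; exact permutation p = 0.0498, adjusted p = 0.448), and none of the 9 differences passed adjustment.

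Of 12 other tested genes of actin subunit turnover, Gmfg and Tmsb4x fell in pDC, and the list's median was -0.28 to 0.02. Cofilin, encoded by Cfl1 and the partner of CAP1 in taking filaments apart, averaged 1246.8 ± 74.5 CPM in NOD Rag1-/- and 1434.3 ± 217.6 CPM in B6 Rag1-/- cDC1 (-0.21 ± 0.29, edgeR adjusted p = 1). Cap2, the paralogue of Cap1, was listed at 0 in both strains in cDC1, moDC and pDC.

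Tnfrsf14, the HVEM receptor, rose in NOD Rag1-/- cells. In moDC it had 20.2, 26.9 and 19.9 CPM in NOD Rag1-/- libraries, against 2.51 and 2.48 CPM in B6 Rag1-/- libraries (log2 change 3.16 ± 0.39, edgeR adjusted p = 7.2e-05). In cDC1 it had 18.1, 21.3 and 21.5 CPM in NOD Rag1-/- libraries, against 5.27, 4.27 and 3.28 CPM in B6 Rag1-/- libraries (2.24 ± 0.31, edgeR adjusted p = 0.00026). The change was 2.55 ± 0.32 in cDC2 (edgeR adjusted p = 6.6e-05) and 2.13 ± 0.32 in pDC (edgeR adjusted p = 0.0004). NOD Rag1-/- groups were near each other, with means of 15 to 22.4 CPM, and B6 Rag1-/- groups had means of 2.5 to 4.27 CPM. In Rag-sufficient cells the change was 2.03 (pDC) to 3.43 (moDC). B6g7 moDC had the lowest mean of all groups, 1.25 ± 0.653 CPM (n = 6), and NOD moDC had 13.9 ± 1.59 CPM (n = 5). Over both strains the level in moDC was below that in cDC2 (-0.68 ± 0.21, edgeR adjusted p = 0.00554), while in NOD alone the difference was -0.00 ± 0.28 (edgeR adjusted p = 0.998) and in B6g7 alone -1.35 ± 0.30 (edgeR adjusted p = 0.00041). The difference between these contrasts was not tested.

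Of 17 tested ligands, partners and signalling genes of the receptor, Btla was called with opposite signs. It averaged 121.3 ± 22.6 CPM in NOD Rag1-/- and 36 ± 6.99 CPM in B6 Rag1-/- pDC (1.73 ± 0.30, edgeR adjusted p = 0.0018), but 30.7 ± 12 CPM in NOD Rag1-/- and 88.7 ± 12 CPM in B6 Rag1-/- moDC (-1.53 ± 0.32, edgeR adjusted p = 0.0148). In cDC1, where BTLA is a known surface protein, it averaged 1072.4 ± 59.8 CPM in NOD Rag1-/- and 720.6 ± 62.2 CPM in B6 Rag1-/- libraries (0.57 ± 0.29, edgeR adjusted p = 0.589). Tnfsf14, which encodes the ligand LIGHT, averaged 10.5 ± 1.72 CPM in NOD Rag1-/- and 15.2 ± 4.71 CPM in B6 Rag1-/- cDC2 (edgeR adjusted p = 0.952). The lymphotoxins Lta and Ltb and the NF-kB subunit Nfkb2 fell in pDC, and the list's median was -0.41 to 0.15. Without pDC B6 Rag1-/- replicate 3 the Nfkb2 call was lost (-0.71 ± 0.29, edgeR adjusted p = 0.0798). Over all 8 lists of related genes that library's removal, an alternative added after the data had been seen, left 16 of 18 pDC calls and brought the number to 37 of 130 genes. The rise was not particular to these lists, since pDC calls over all genes went from 602 of 13137 to 3183.

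**Figure D4:**
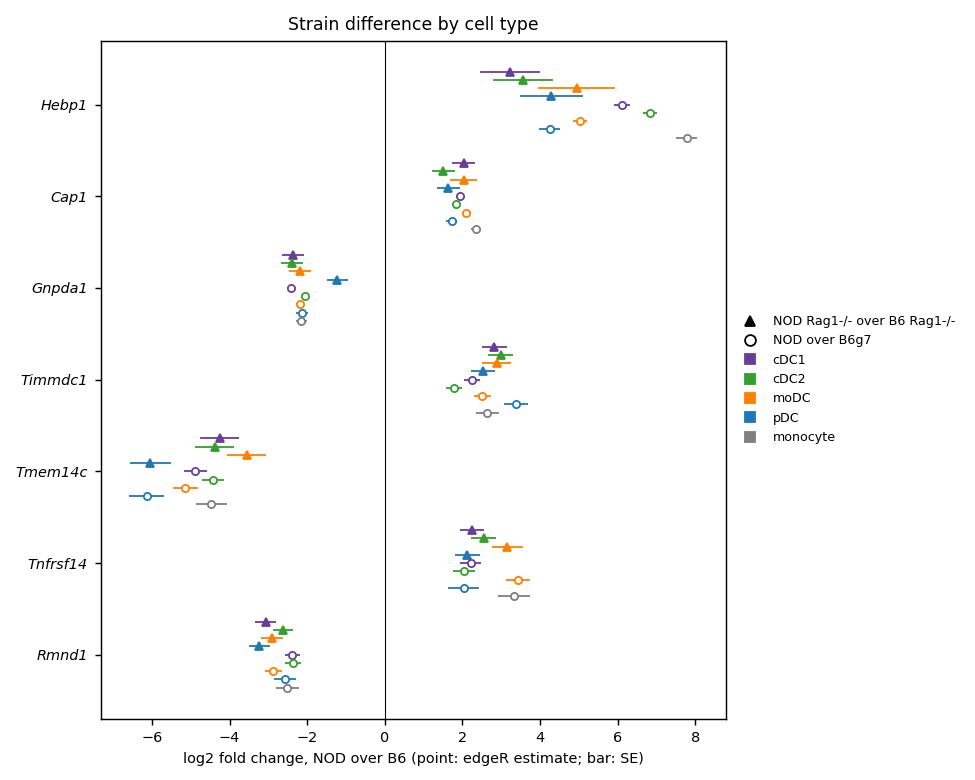
Log2 change, NOD over B6, with its SE for the 7 genes counted in both strains, by cell type. Triangles are Rag1-/- and circles Rag-sufficient cells, where no test was made: Tmem14c lies between -6.14 and -3.56, Rmnd1 and Gnpda1 below 0, and the other 4 genes above 0 in every cell type.

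Among the genes tested, Zfp979 and Zfp985 are neighbours on chromosome 4, and their promoters are alike. The 300 bases around each RefSeq start (250 before, 50 after; build GRCm38.p6) are printed 5′ to 3′ on the gene's strand because the genes were read together in NOD and scarcely in B6. Capitals mark runs of at least 15 bases that both hold. Both sequences come from the reference build and not from the mice sequenced here, and the NOD sequence was not examined. The printed window of Zfp979 lies at chr4:147642459-147642758 on the minus strand and that of Zfp985 at chr4:147553027-147553326 on the plus strand.
Zfp979: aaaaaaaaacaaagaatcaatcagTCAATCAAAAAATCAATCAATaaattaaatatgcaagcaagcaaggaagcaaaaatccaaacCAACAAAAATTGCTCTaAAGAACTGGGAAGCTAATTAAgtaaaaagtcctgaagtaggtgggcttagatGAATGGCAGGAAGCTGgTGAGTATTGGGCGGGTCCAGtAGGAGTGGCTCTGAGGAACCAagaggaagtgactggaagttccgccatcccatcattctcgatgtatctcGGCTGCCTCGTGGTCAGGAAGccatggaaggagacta
Zfp985: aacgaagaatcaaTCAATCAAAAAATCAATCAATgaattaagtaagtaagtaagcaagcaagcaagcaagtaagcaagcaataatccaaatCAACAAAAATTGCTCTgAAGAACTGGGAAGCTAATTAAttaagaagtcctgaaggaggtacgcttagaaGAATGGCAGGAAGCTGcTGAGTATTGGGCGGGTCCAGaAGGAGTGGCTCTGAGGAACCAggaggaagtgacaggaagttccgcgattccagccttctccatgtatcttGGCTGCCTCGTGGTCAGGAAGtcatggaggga
Aligned, the promoters had 257 identical and 27 mismatched bases (90.5% identical), and 136 bases of each stood in capitals. The longest coding transcripts were 81% identical.

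Zfp979 had 16.4, 13.5 and 14 CPM in NOD Rag1-/- cDC1 libraries and 0 in all 3 B6 Rag1-/- libraries, at least 260.8-fold higher against a floor of 3 counts over the group. In cDC2 it had 40.3, 39.2 and 32.5 CPM in NOD Rag1-/- libraries, against 0, 0 and 0.0479 CPM in B6 Rag1-/- libraries, a ratio of 2441.0 on a single B6 count (exact counting interval 437.7 to 96444.3). In moDC it had 27.5, 42 and 40.8 CPM in NOD Rag1-/- libraries and 0 in both B6 Rag1-/- libraries, at least 481.5-fold higher. No NOD Rag1-/- library came near a B6 Rag1-/- library in these cell types. The pDC libraries had 32.1, 38.7 and 39.9 CPM in NOD Rag1-/- and 0, 0 and 0.0899 CPM in B6 Rag1-/- (ratio 783.0, exact counting interval 216.5 to 6470.9). The edgeR adjusted p was between 1.7e-08 (cDC2) and 2.6e-07 (moDC).

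Zfp985 had 5.15, 8.53 and 10 CPM in NOD Rag1-/- moDC libraries and 0 in both B6 Rag1-/- libraries, at least 103.4-fold higher. In cDC2 it had 6.29, 9.4 and 6.51 CPM in NOD Rag1-/- libraries, against 0.167, 0 and 0 CPM in B6 Rag1-/- libraries, a 133.1-fold difference of means. It was at least 56.4-fold higher in NOD Rag1-/- cDC1 and at least 96.5-fold higher in pDC, where no B6 Rag1-/- library had a count, and the edgeR adjusted p was between 0.00034 (pDC) and 0.00152 (moDC). Among B6g7 libraries 20 of 24 had no count of Zfp979 and 19 of 24 none of Zfp985. The highest were 0.994 CPM of Zfp979 in pDC B6g7 replicate 3 and 0.357 CPM of Zfp985 in a cDC2 library. All 23 NOD libraries held both, from 7.37 to 87.9 CPM of Zfp979 and 2.75 to 21.9 CPM of Zfp985.

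Within NOD both genes were highest in monocytes, at 69.7 ± 15.8 CPM of Zfp979 and 16.6 ± 4.53 CPM of Zfp985 (SD, n = 3), and lowest in cDC1, at 13.8 ± 6.25 and 5.48 ± 2.39 CPM (n = 6). In NOD libraries alone Zfp979 was lower in cDC1 than in cDC2 (-1.23 ± 0.23, edgeR adjusted p = 2.5e-05) and higher in monocytes (1.58 ± 0.28, edgeR adjusted p = 7.6e-06). Zfp985 was lower in cDC1 as well (-0.73 ± 0.28, edgeR adjusted p = 0.0271) and higher in monocytes (1.39 ± 0.34, edgeR adjusted p = 0.00069). In NOD Rag1-/- libraries alone Zfp979 was lower in cDC1 than in cDC2 (-1.37 ± 0.34, edgeR adjusted p = 0.0115), and the difference of Zfp985 was -1.24 ± 0.68 (edgeR adjusted p = 0.3). Over both Rag1-/- strains, of which B6 Rag1-/- was at or near 0, neither was called (edgeR adjusted p = 0.281 for Zfp979 and 0.0589 for Zfp985). Zfp979 shares 75-base windows with other genes over 19.8% of its transcript, most with Zfp978 (14.9%), and Zfp985 over 4.72%, so each name may hold reads of relatives.

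Of 19 other zinc finger genes of the cluster 13 were in the table and 8 were tested. Zfp534, the nearest tested gene on the other side of Zfp979, averaged 3.15 CPM in NOD Rag1-/- and 0.0139 CPM in B6 Rag1-/- cDC2 (edgeR adjusted p = 0.00221). It rose in cDC1 and pDC as well, and in moDC it averaged 0.474 CPM in NOD Rag1-/- and was listed at 0 in B6 Rag1-/- (edgeR adjusted p = 0.067). Zfp984 fell in moDC and pDC. The list's median was -0.54 to 0.17, so the cluster as listed had no common sign.

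Differences between cell types did not enter the rule of choice. In Rag-sufficient mice cDC1 against cDC2 called 4 of 10 genes (60.7% of all genes), moDC 3 of 10 (48.9%) and monocytes 4 of 10 (68.5%). In Rag1-/- mice cDC1 called 1 of 10 (23% of all genes) and pDC 5 of 10 (54.3%). Between Rag1-/- moDC and cDC2, where 12% of all genes were called, the adjusted p of the 7 genes counted in both strains ran from 0.243 for Hebp1 to 1 for Gnpda1 (edgeR). The counts averaged over both strains take in Zfp985 in Rag-sufficient cDC1 and moDC, where B6g7 cells had no count. In NOD libraries alone cDC1 called 5 of 10 (49.2%), moDC 3 of 10 (38.6%) and monocytes 8 of 10 (59.2%). Gnpda1 was higher in monocytes than in cDC2 by 0.84 ± 0.09 (edgeR adjusted p = 2.8e-11) and lower in Rag1-/- pDC (-1.40 ± 0.19, edgeR adjusted p = 7.2e-06), and in cDC1 it was higher by 0.27 ± 0.07 (edgeR adjusted p = 0.00162). That cDC1 difference was -0.01 without scaling, 0.08 ± 0.11 in NOD alone (edgeR adjusted p = 0.563) and 0.45 ± 0.10 in B6g7 alone (edgeR adjusted p = 0.00019). Rag-sufficient pDC came from a sort date of their own and were not tested against other cells.

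Whether the strain change was unequal over the 4 Rag1-/- cell types was tested for each gene in 1 edgeR fit. It called 41 of 13137 genes (0.312%). Of the 10 genes Tmem14c had the lowest p (F = 5.08, unadjusted p = 0.00942, adjusted p = 0.398) and Gnpda1 the next (unadjusted p = 0.0181, adjusted p = 0.502). The other 8 had an unadjusted p of at least 0.1. For St6galnac1, Zfp979 and Zfp985 the test cannot judge this, since B6 Rag1-/- cells were at or near 0 and the change has no measured size. Without pDC B6 Rag1-/- replicate 3 the test called 867 genes, Tmem14c (adjusted p = 0.00916) and Gnpda1 (adjusted p = 0.0184) among them. With limma on log2 CPM it called St6galnac1 (adjusted p = 0.00108), whose B6 Rag1-/- level there rests on a small count added before taking logs.

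Over the 18 group means of log2 CPM, Zfp979 and Zfp985 were the most alike of 13836 genes searched, each with the other (Pearson r = 0.994). Tmem14c was most like 4930481A15Rik (r = 0.987) and Eps8l1 (r = 0.986), and Rmnd1 most like Eps8l1 (r = 0.976) and Trim12a (r = 0.974). Timmdc1 was most like Gm1943 (r = 0.962) and Tmod4 (r = 0.96), Cap1 most like Stk35 (r = 0.953) and Chp1 (r = 0.946), and St6galnac1 most like Atp6v0e2 (r = 0.953) and Morn4 (r = 0.951). Hebp1 was most like St6galnac2 (r = 0.942) and Pira1 (r = 0.933), and Gnpda1 most like Vill (r = 0.925) and Nlrp1c-ps (r = 0.915). Tnfrsf14 was most like Tmem87a (r = 0.959), followed by Gm8615 (r = 0.945), the near-copy of Gnpda1. The second matches of the zinc finger genes were Pira1 for Zfp979 (r = 0.985) and BC018473 for Zfp985 (r = 0.98). The groups share strain and sequencing run, so any gene that differs between the strains in every cell type scores high on this measure.

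For Rag1-/- cells the authors' deposited table of transcripts gave an adjusted p under 0.05 for 42 of 44 values of 11 transcripts. The exceptions there were Hebp1 in cDC1 (adjusted p = 0.103) and NM_001301067 of Cap1 in pDC (adjusted p = 0.0966).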

How the data were processed

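Expected counts per transcript for all 70 libraries were estimated by the authors with RSEM, per the submitters' processing notes, which also name limma. The deposited table calls these values CPM, but they are unnormalized expected counts. Aligner and genome build: not given in the sources used here. Libraries were made from little RNA with a low-input kit, per the labels' protocols. The authors' deposited tables of comparisons hold log2 fold changes and adjusted p-values.

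The 35070 transcripts were summed to 24435 genes (98 transcripts had no gene name), and sums were rounded. Values in log2 CPM, including those given to limma, used a prior count of 2. Each set was fitted over all groups with edgeR 4.0.16 in R 4.3.3 (quasi-likelihood, TMM scaling), after a filter of at least 1 CPM in at least 3 libraries. This left 13137 genes in Rag1-/- and 13413 in Rag-sufficient mice, where sort date was a term. Tests were two-sided, adjusted by Benjamini-Hochberg at 0.05, and were tested on simulated data. Alternatives were DESeq2 1.42.0, limma 3.58.1, other scalings and filters, a replicate block, each cell type alone, and leaving out each library. Contrasts within 1 strain, counts added from near-copies, and list genes without 1 pDC library were chosen after seeing the data. Among Rag1-/- libraries same-numbered cDC1 replicates of both strains share a sort date, per the labels, and deviated together from their group means (r = 0.221, 0.115 and 0.274), so these numbers pair the cDC1 libraries. Intervals and floors (3 counts) cover counting error only.

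The 10 genes and the gene lists were chosen with earlier results of these data known. Named besides the 10 are the first 2 genes of each list, list genes called in a comparison, the 2 genes most alike by Pearson r, and the nearest tested genes on each side. List genes named only because they were called fall outside the rule set at the start and were chosen after their values were seen. A result for 1 list gene is not reported here. Shared windows come from GENCODE vM21 transcripts and promoters from RefSeq, whose table held 8 of the 10 genes.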

Additional observations from a re-analysis of the deposited data

Results flagged for a closer look

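Of 60 groups of 4 to 10 libraries examined for 1 library far from the rest, 3 had one. The rate of about 1 in 20 groups flagged by chance holds for continuous values, not for groups at or near 0 counts. Tnfrsf14 had 0.0 CPM in moDC B6g7 replicate 2, where the other 5 libraries had 1.3 to 1.94 CPM. Zfp979 had 0.0586 CPM in cDC1 B6g7 replicate 5 and 0.108 CPM in moDC B6g7 replicate 2, where all other libraries of each group had no count. Each of these values is 1 count, and any count in such a group is flagged.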

How the results depend on the processing

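Of 1248 strain values of the 10 genes under the alternatives, 1215 kept their sign and side of the threshold, 31 lost the call, and 2 reversed: with Gm8615 added, Gnpda1 changed by 0.03 in moDC and 0.89 in pDC. Of 1827 cell-type values 1798 kept both, 13 lost and 15 gained a call, and Gnpda1 between Rag-sufficient cDC1 and cDC2 reversed to -0.01 without scaling. Of the 40 strain calls in Rag1-/- mice, RLE scaling, no filter, DESeq2 and limma each kept 40, no scaling and a sort date term 39, each cell type alone 35, the replicate block 29, and leaving out 1 library 38 to 40. Gnpda1 in pDC was lost without scaling (-0.88, adjusted p = 0.186), with the sort date term (-1.19, adjusted p = 0.052) and in pDC alone (adjusted p = 0.53). Zfp985 was lost in all 4 cell types with the replicate block (adjusted p 0.1 to 0.254). The cause was not tested.

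Over all genes, strain calls in cDC1, cDC2, moDC and pDC were 219, 307, 196 and 602 by edgeR, and 482, 703, 500 and 1675 by DESeq2; limma gave 321 in moDC. The replicate block gave 88, 115, 38 and 114, and a fit of each cell type alone 510 in cDC1, 565 in cDC2 and 85 in pDC. Replicate numbers paired only the Rag1-/- cDC1 libraries (the 3 of 11 pairs with r above 0.1). In the other cell types libraries shared only a number, save pDC replicate 3 of both strains, which shared a sort date. That pair had the lowest r, -0.648. Leaving out 1 library gave 118 to 323 calls in cDC1, 179 to 414 in cDC2, 81 to 275 in moDC and 246 to 3183 in pDC, each highest without pDC B6 Rag1-/- replicate 3. Unequal change (41 genes) was called for 284 genes by DESeq2, 124 by limma, 1 with the replicate block, and 25 to 867 without 1 library. Transcript calls (1148) were 3934 by DESeq2 and 1955 by limma. Calls against cDC2 in Rag1-/- mice (3023 in cDC1, 1574 in moDC, 7129 in pDC) were 1745 in NOD and 1468 in B6 for cDC1, 144 in B6 for moDC and 3869 in NOD for pDC, and 2555 to 3657, 743 to 1981 and 6286 to 8072 without 1 library. In Rag-sufficient mice they were 5404 in cDC1 and 3545 in moDC without the sort date term, and 7968 to 8227 in cDC1, 6286 to 6577 in moDC and 8855 to 9248 in monocytes without 1 library. The share of the 10 genes holding their Rag-sufficient sign was 100.0% to 100.0% without 1 library. Genes with no count in B6 are limited by depth to lower bounds.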
